A study of Mus musculus with 20 samples.

Results

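The 9 genes described here encode proteins linked to the recognition of methylated or oxidised cytosine: Mbd1, Mbd2, Mbd3, Zbtb33, Uhrf2, Hells, Hmces, Gadd45a and Gadd45b. They were chosen by symbol, and each symbol matched 1 row of the 46939 genes in the deposited tables. RNA was measured in mouse embryonic stem cells of 129 background, in 2 libraries of wild-type cells (WT) and 2 libraries of cells with a knockout of Tdg (TDG KO). CTCF, the zinc finger protein that anchors chromatin loops, was mapped by chromatin immunoprecipitation in 2 lists of peaks per genotype. Both genotypes were kept in serum and LIF on arrested fibroblasts, which were then depleted by serial plating. The labels give neither separate cultures for the replicates nor the number of lines per genotype, so p-values measure the spread between these libraries, and a difference of genotype and a difference between lines cannot be told apart.

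Cytosine followed by guanine (CG) is the main site of DNA methylation in mammals. TET enzymes oxidise 5-methylcytosine stepwise to 5-hydroxymethyl-, 5-formyl- and 5-carboxylcytosine, and TDG cuts out the formyl and carboxyl forms, after which base excision repair restores cytosine. Reader proteins bind one or more of these bases and bring chromatin remodellers, deacetylases or repair proteins to them. The comparison asks whether the RNA of these readers differs in cells without TDG, which lack this glycosylase.

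All 9 members passed the minimum of a mean FPKM of 1 (fragments per kilobase of transcript, scaled by mapped fragments), the level at which a gene was tested. Gadd45b rose in TDG KO. Hmces, Hells, Zbtb33, Mbd2 and Gadd45a fell, to between 65.1% and 81.1% of the WT mean. Mbd1, Mbd3 and Uhrf2 did not pass the test. The test was limma on log2(FPKM + 1) with Benjamini-Hochberg adjustment over all 12035 tested genes, 2-sided, at a threshold of 0.05. It called 54.0% of all tested genes, 24.4% higher and 29.5% lower, against 6 of the 9 members (66.7%), 1 higher and 5 lower. Over the members the median log2 change was -0.29, beside -0.04 over all tested genes. The 2 libraries of one genotype lay wholly above or below those of the other in 7 members, and in 78.8% of all tested genes.

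The genotype labels were checked on Tdg itself, which held 28.1 and 30.4 FPKM in WT and 5.50 and 4.74 FPKM in TDG KO. Libraries correlated across genes at 0.989 within each genotype and at 0.955 to 0.960 between genotypes. All 10 embryonic stem cell markers listed were tested, and the lowest of their medians over the 4 libraries was 35.2 FPKM; 2 rose and 5 fell, with summed levels of 8017 and 8811 FPKM in WT and 6183 and 6376 FPKM in TDG KO. Of 14 fibroblast markers, 12 were tested, 8 fell and none rose. Their summed level was 338 and 220 FPKM in WT and 174 and 203 FPKM in TDG KO, with WT replicate 1 highest and none of them at 0. Without WT replicate 1 all 6 called members were still called, with adjusted p-values from 0.00237 (Gadd45b) to 0.0474 (Mbd2) in limma. Of primitive endoderm markers Gata6, Gata4, Sox17 and Foxa2 stayed below 1 FPKM in all 4 libraries, as did Cdx2, Elf5 and Hand1 of trophectoderm and Sox1 of the neural list. Of the other trophectoderm markers 1 rose and 1 fell, and the 5 markers of that list summed to 16.7 and 15.6 FPKM in WT and 26.3 and 27.9 FPKM in TDG KO. The neural markers summed to 18.1 and 18.4 FPKM in WT and 63.1 and 70.0 FPKM in TDG KO, and the 4 markers of the 2-cell-like state to 6.25 and 6.81 against 14.2 and 14.4 FPKM. The part of such cells in the members' values was not tested. In these bulk samples a change in the share of a cell type and a change in RNA per cell cannot be told apart.

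Stretches of DNA before the members' starts bear on the results below and are printed first. RefSeq windows from 250 bases before to 50 bases after the start (GRCm38.p6) were found for 7 of the 9 members. The start of Zbtb33 lies inside a CTCF peak in all 4 lists, and Gadd45b, the one member that rose, has CTCF peaks just upstream of the window shown. Capitals in Zbtb33 mark a match to the CTCF core motif, which lies on the opposite strand. Capitals in Gadd45b mark a TATAAA match. Positions are counted back from the start, so that the last base shown for these genes is -1.
Zbtb33: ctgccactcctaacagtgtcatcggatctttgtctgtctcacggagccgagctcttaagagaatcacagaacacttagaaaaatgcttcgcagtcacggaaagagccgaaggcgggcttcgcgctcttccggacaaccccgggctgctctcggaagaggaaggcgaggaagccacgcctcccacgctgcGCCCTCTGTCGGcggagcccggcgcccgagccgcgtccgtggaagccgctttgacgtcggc
Gadd45b: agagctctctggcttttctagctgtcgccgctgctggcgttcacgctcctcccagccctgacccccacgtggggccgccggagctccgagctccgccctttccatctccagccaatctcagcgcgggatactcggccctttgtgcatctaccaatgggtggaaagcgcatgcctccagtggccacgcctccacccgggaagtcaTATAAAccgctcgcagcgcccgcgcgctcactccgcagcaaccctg
The Zbtb33 stretch is chrX:38189543-38189792 and the Gadd45b stretch chr10:80929841-80930090, both on the plus strand. They hold 27 and 22 CG dinucleotides. Over the 250-base windows of all 27025 genes in the table the median was 6, and the 7 members with a window held between 11 and 28. This background, also used for the motif shares below, includes genes under the FPKM minimum, which all members passed. A background of tested genes only was not computed for them.

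Hells and Uhrf2 share a palindrome upstream, in capitals below, which contains 2 CG dinucleotides and is known as a site of Kaiso, the product of Zbtb33, and of BANP. It is shown with its flanks, 30 bases in all.
Hells: gagcccgaagTCTCGCGAGAccaccgggtt
Uhrf2: cccgcgtggaTCTCGCGAGAtccgggttgg
These lie at chr19:38930899-38930928 and chr19:30030430-30030459, plus strand, and the palindrome begins at -81 in Hells and at -73 in Uhrf2. Both lie upstream of the start used here and inside the full RefSeq span of their gene. It was in 2 of the 7 windows of 250 bases found for members and in 0.407% of the windows of all genes. The other motif searched for Kaiso, TCCTGCNA, was in none of the 7 windows and in 4% of all windows, on either strand. The CTCF core letters were in 2 of the 7 windows (Zbtb33, from -61, and Gadd45a, from -238) and in 7.08% of all. TATAAA matched in Gadd45b from -46 and, on the opposite strand, in Mbd3 from -221, and in 13% of all windows. A match is a run of letters and was not measured as binding, apart from the CTCF peaks described below.

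**Figure D1:**
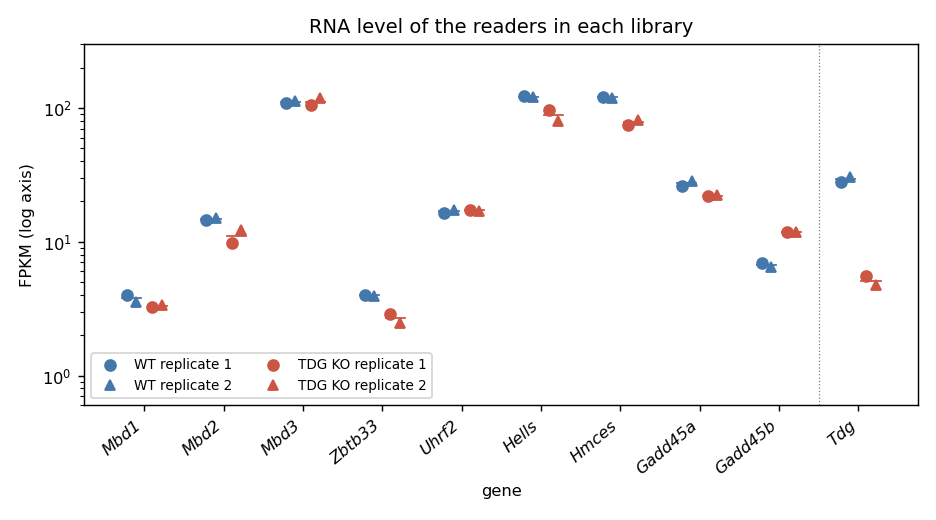
RNA level in FPKM (log axis) of the 9 members and Tdg in each library; blue is WT, red is TDG KO, circles and triangles are replicates 1 and 2, and short lines are means. Gadd45b is the member with both TDG KO libraries above both WT libraries, while Mbd3 and Uhrf2 overlap between genotypes.

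Among the methyl-CpG binding domain proteins, Mbd2 fell and Mbd1 and Mbd3 did not pass the test. Mbd2 (ENSMUSG00000024513, chr18:70568225-70629134) reads methylated CG and recruits the NuRD complex, which couples a nucleosome remodeller with histone deacetylases. Its level was 14.6 and 15.1 FPKM in WT replicates 1 and 2 and 9.83 and 12.1 FPKM in TDG KO replicates 1 and 2. Both TDG KO libraries were lower than both WT libraries, and the TDG KO libraries differed from each other by more than the WT libraries did. Mbd2 had a log2 change of -0.41 (SE 0.10, limma adjusted p = 0.0129). That call was lost without WT replicate 2 (log2 change -0.39, adjusted p = 0.063 in limma) and with no filter on FPKM (adjusted p = 0.0627). The size of the change rested on the TDG KO pair, at -0.27 when TDG KO replicate 1 was left out and -0.55 when TDG KO replicate 2 was.

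Mbd3 (ENSMUSG00000035478, chr10:80392539-80399531) takes the place of Mbd2 in a separate form of NuRD, and in mammals its binding domain has lost most affinity for methylated CG. It held 109 and 113 FPKM in WT and 104 and 118 FPKM in TDG KO. The WT values lay between the 2 TDG KO values, so the genotypes overlapped. The log2 change was 0.00 (-0.0037, SE 0.075, 95% interval -0.18 to 0.17, adjusted p = 0.969 in limma). The ratio of Mbd3 to Mbd2 FPKM was 7.46 and 7.50 in WT against 10.6 and 9.70 in TDG KO. The ratio was higher in both TDG KO libraries, and the smallest p that an exact permutation test of 2 libraries against 2 can give is 0.33.

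Mbd1 (ENSMUSG00000024561, chr18:74267605-74282737) binds methylated CG and works with the histone methyltransferase Setdb1. It was one of the 2 lowest members, with 3.99 and 3.55 FPKM in WT and 3.25 and 3.37 FPKM in TDG KO. Both TDG KO libraries were lower, and the gap between the nearest WT and TDG KO libraries was smaller than the gap between the WT libraries. The log2 change of -0.15 did not pass the test (95% interval -0.36 to 0.07, adjusted p = 0.213 in limma).

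Zbtb33 encodes Kaiso, a zinc finger protein that binds methylated CG pairs and recruits the NCoR corepressor, and that is also known as a partner of CTCF. The gene (ENSMUSG00000048047, chrX:38189793-38197046) held 4.01 and 3.94 FPKM in WT and 2.88 and 2.46 FPKM in TDG KO. The genotypes did not overlap, and the gap between them was wider than either pair of replicates. The log2 change was -0.44 (SE 0.095, adjusted p = 0.00814 in limma). With a pseudocount of 0.1 in place of 1 it was -0.56, since a pseudocount of 1 shrinks changes at this level. The authors counted Zbtb33 in a locus of 62.6 kb that also holds Tmem255a, at 1.24, 1.77, 1.05 and 1.29 FPKM in WT replicates 1 and 2 and TDG KO replicates 1 and 2.

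Uhrf2 and Hells are chromatin proteins that act on modified or methylated DNA. Uhrf2 (ENSMUSG00000024817, chr19:30030430-30093726) carries an SRA domain that binds 5-hydroxymethylcytosine. It held 16.4 and 17.2 FPKM in WT and 17.2 and 17.1 FPKM in TDG KO. These 4 values overlapped, with a log2 change of 0.03 (95% interval -0.13 to 0.18, adjusted p = 0.744 in limma). Hells (ENSMUSG00000025001, chr19:38930262-38970470), also called LSH, is a nucleosome remodeller needed for methylation of repeats. It held 123 and 120.0 FPKM in WT and 95.7 and 80.1 FPKM in TDG KO. Both TDG KO libraries were lower, and they stood further apart than the WT pair. Hells had a log2 change of -0.47 (SE 0.090, adjusted p = 0.00496 in limma). The ratio of Hells to Uhrf2 FPKM went from 7.51 and 6.96 in WT to 5.55 and 4.70 in TDG KO. Hells and Uhrf2, which share the upstream palindrome, thus differed in their call; the difference between their changes was not tested.

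Hmces fell furthest of the members. Its protein was isolated as a binder of 5-hydroxymethylcytosine and is known for crosslinking to abasic sites in single-stranded DNA, which shields them from breakage. The gene (ENSMUSG00000030060, chr6:87913907-87936619) held 121 and 119 FPKM in WT and 74.5 and 81.8 FPKM in TDG KO. All TDG KO values were far below the WT values relative to the gaps between replicates. The log2 change was -0.61 (SE 0.067, 95% interval -0.78 to -0.45, adjusted p = 0.000538 in limma). Its call held in all 11 alternatives, with adjusted p up to 0.00796. The authors counted it in a locus of 48.8 kb with Copg1, which held 53.9 and 51.8 FPKM in WT and 51.0 and 53.3 FPKM in TDG KO and was not called (log2 change -0.02, adjusted p = 0.807 in limma).

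Gadd45a and Gadd45b moved in opposite directions. GADD45 proteins are small stress-induced adaptors without enzyme activity that have been described as bringing TET and TDG to DNA for demethylation. Gadd45b (ENSMUSG00000015312, chr10:80930091-80932204) held 6.93 and 6.43 FPKM in WT and 11.9 and 11.9 FPKM in TDG KO. The TDG KO libraries agreed closely and lay above both WT libraries. The log2 change was 0.75 (SE 0.073, 95% interval 0.57 to 0.92, adjusted p = 0.00034 in limma), the largest among the members in absolute size, and it was called in all 11 alternatives.

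At Gadd45a (ENSMUSG00000036390, chr6:67035096-67037407) the libraries gave 26.1 and 28.4 FPKM in WT and 21.9 and 22.3 FPKM in TDG KO. Both TDG KO libraries were lower than both WT libraries. The log2 change was -0.29 (SE 0.068, adjusted p = 0.0111 in limma), the smallest of the 6 called. That call was lost without WT replicate 2 (log2 change -0.23, adjusted p = 0.082) and, by limma, without TDG KO replicate 1 (-0.27, with an adjusted p of 0.0581). The ratio of Gadd45a to Gadd45b FPKM was 3.77 and 4.41 in WT against 1.84 and 1.88 in TDG KO.

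In WT the order of levels was Hells, Hmces, Mbd3, Gadd45a, Uhrf2, Mbd2, Gadd45b, Zbtb33 and Mbd1. Hells (121 ± 2.05 FPKM) and Hmces (120.1 ± 1.88 FPKM, SD, n = 2) overlapped, as did Zbtb33 and Mbd1, and other neighbours in that order did not. In TDG KO Mbd3 was first, above Hells and Hmces, which overlapped again. Gadd45b passed Mbd2 in the order, though these neighbours overlapped (11.9 ± 0.015 and 10.98 ± 1.63 FPKM, SD, n = 2), and Zbtb33 came last, below Mbd1.

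By the authors' deposited table, 3 of the 9 members have a q-value under 0.05, where 27.4% of the 16262 genes it tested do. Gadd45b has a log2 change of 0.83 (q-value 0.000468), Hmces of -0.62 (0.0379) and Zbtb33 of -0.57 (0.0153) in the authors' deposited table, with the sign turned to TDG KO over WT. Hells (q-value 0.139), Mbd2 (0.176) and Gadd45a (0.224) are not significant in the authors' deposited table. With a log2 change of 0.5 or more required beside the call, Gadd45b and Hmces were left, that is 2 of the 9 members, against 22.1% of all tested genes. This size limit was chosen after the values were seen.

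Genes with the most similar profile over the 4 libraries were found by the distance between log2(FPKM + 1) values after subtraction of each gene's mean. For Gadd45b, the member that rose, these were A4galt, a glycosyltransferase (6.12 and 5.77 FPKM in WT, 10.6 and 10.7 FPKM in TDG KO), Mvp, the major vault protein, and Myh14, a non-muscle myosin, at distances of 0.015, 0.03 and 0.034. For Hmces they were the RNA helicase Ddx39b (332 and 323 FPKM in WT, 204 and 225 FPKM in TDG KO), Haus4, a subunit of the augmin complex, and the aminoacylase Acy1, at distances of 0.0069, 0.03 and 0.031. Within a distance of 0.1 lay 87 genes for Gadd45b and 105 for Hmces, of 12035 tested genes. Neither profile was thus particular to its member, and no such count was made for other genes.

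The genes around a member on its chromosome give a local background. Within 2.5 Mb of Zbtb33 the median log2 change of 32 tested genes was 0.29, with 16 higher and 7 lower, whereas Zbtb33 was at -0.44. Of the 32, 8 are Rhox homeobox genes, all called higher, with log2 changes from 1.37 to 4.33. Without them the median of the other 24 genes was 0.11, with 8 higher and 7 lower. Around Hmces the median of 46 genes was -0.08, with 6 higher and 14 lower, and around Hells the median of 25 genes was -0.07, with 7 higher and 7 lower. Gadd45b and Mbd3 share a gene-rich stretch of chromosome 10, where the median of 106 genes around Gadd45b was 0.08 and that of 115 genes around Mbd3 was 0.11. Tdg lies on the same chromosome within the window of each. The medians were -0.03 over 6 genes around Mbd2, -0.03 over 7 around Gadd45a, -0.21 over 16 around Mbd1 and -0.01 over 18 around Uhrf2. This window was chosen after the values were seen.

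**Figure D2:**
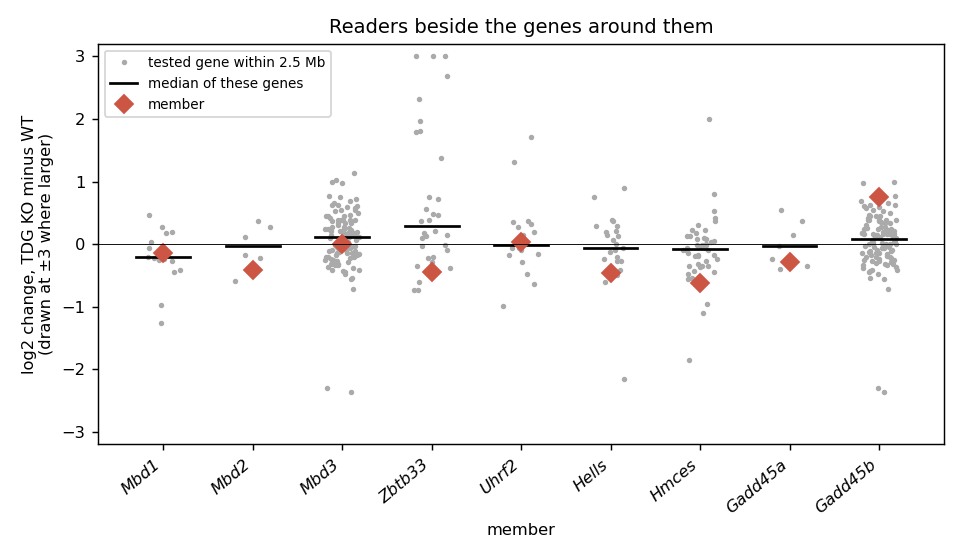
Log2 change (TDG KO minus WT) of each member (red diamonds) and of the tested genes within 2.5 Mb of it (grey points, median as a black line); changes beyond 3 in size are drawn at 3. Zbtb33 lies at -0.44 under a median of 0.29, and Gadd45b at 0.75 above a median of 0.08.

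Other proteins linked to reading or removing modified cytosine were listed for comparison. Of 20 such genes 19 were tested (Zbtb4 stayed under the minimum), 3 rose, 12 fell and 4 were not called, with a median log2 change of -0.35. The share called was 78.9%, beside 54.0% of all tested genes, of which 24.4% were higher and 29.5% lower. The count of 15 called genes was 9 without TDG KO replicate 2. Zbtb38, a zinc finger relative of Kaiso, went from 5.89 and 5.52 to 2.80 and 2.23 FPKM, and Zfp57, which protects methylation at imprinted loci, from 272 and 283 to 149 and 140 FPKM. Each fell by 0.93 on the log2 scale (SE 0.11 for Zbtb38 and 0.065 for Zfp57), with adjusted p-values of 0.000597 and 9.62e-05 in limma. Baz2b, a bromodomain protein with an MBD-like domain, fell by 0.74. Tdg, also in this list, fell by 2.31. Uhrf1, the partner of Dnmt1 at replicated DNA, held 153 and 145 FPKM in WT and 132 and 135 FPKM in TDG KO and missed the threshold (limma adjusted p = 0.0709).

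NuRD subunits, the partners of Mbd2 and Mbd3, rose in no case and fell in 8 of 14 tested genes, with 6 not called and a median of -0.29. The share called was 57.1%, close to the 54.0% of all tested genes, though 24.4% of those rose and 29.5% fell. Rbbp7, a histone-binding subunit encoded on the X chromosome, went from 643 and 686 FPKM in WT to 233 and 237 FPKM in TDG KO (log2 change -1.49, SE 0.068, adjusted p = 1.82e-05 in limma). Both TDG KO libraries lay far below the WT pair. Its relative Rbbp4 fell by 0.54, Mta2 by 0.51 and Sall4, a pluripotency factor that binds NuRD, by 0.54. Among the catalytic subunits, Hdac1 (log2 change -0.08, adjusted p = 0.268) and Chd4 (0.09, adjusted p = 0.272 in limma) were not called, nor were Hdac2 and Chd3. Chd5 fell by 0.31 (adjusted p = 0.045 in limma), at 1.33 and 1.41 FPKM in WT and 0.856 and 0.969 FPKM in TDG KO.

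Partners of Mbd1 fell in 3 and rose in 1 of 5 tested genes (80% called, beside 54.0% of all tested genes). Setdb1 went from 36.8 and 36.5 to 25.7 and 24.5 FPKM (log2 change -0.53, adjusted p = 0.000658 in limma). Atf7ip, its stabilising partner, fell by 0.28 and Chaf1a, the large subunit of chromatin assembly factor, by 0.24, whereas Atf7ip2 rose by 0.36. Atf7ip was not called without WT replicate 1 (adjusted p = 0.134) or TDG KO replicate 2 (0.117), nor Atf7ip2 (0.0752 and 0.0719), and Chaf1a not without WT replicate 1 (0.0556) or WT replicate 2 (0.0793 in limma). With no filter on FPKM the limma adjusted p was 0.067 for Atf7ip and 0.0526 for Atf7ip2, and with upper-quartile scaling it was 0.0502 for Atf7ip. Chaf1b was not called (log2 change -0.01 here and 0.02 with upper-quartile scaling).

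Partners of Hells split, with 3 of 7 higher and 2 lower (71.4% called, beside 54.0% of all tested genes). The de novo methyltransferases rose, Dnmt3a by 1.44, Dnmt3b by 1.05 and their cofactor Dnmt3l by 1.02 on the log2 scale. Dnmt3l went from 51.6 and 51.1 FPKM in WT to 100.0 and 111 FPKM in TDG KO. Cdca7, the zinc finger protein that recruits Hells to chromatin, went from 99.7 and 104 to 73.2 and 72.3 FPKM (log2 change -0.48, adjusted p = 0.000815 in limma), beside -0.47 for Hells itself. Cdca7l had a log2 change of 0.17 (adjusted p = 0.0527 in limma, and called with upper-quartile scaling at 0.0255), and Zbtb24, an activator of Cdca7, one of -0.12 (adjusted p = 0.276 in limma).

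Partners of Zbtb33 rose in 2 and fell in 2 of 7 (57.1% called, close to the 54.0% of all tested genes). The catenin Ctnnd1, through which Kaiso was found, went from 66.9 and 66.8 to 49.7 and 48.2 FPKM (log2 change -0.44, adjusted p = 0.00105 in limma), beside -0.44 for Zbtb33. With a pseudocount of 0.1 the changes were -0.45 for Ctnnd1 and -0.56 for Zbtb33. The deacetylase Hdac3 fell by 0.27, and the NCoR complex gene Gps2 rose by 0.33. Hdac3 was not called without WT replicate 2 (adjusted p = 0.0598), nor Gps2 without WT replicate 2 (0.0635) or TDG KO replicate 2 (0.0606 in limma). Ncor1, the corepressor itself, was at 86.2 to 90.6 FPKM in WT and was not called (log2 change -0.04, and 0.00 with upper-quartile scaling), nor was Tbl1x (0.02).

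Genes that act with GADD45 proteins in stress and the cell cycle rose in 3 and fell in 4 of 10. The share called was 70%, beside 54.0% of all tested genes. The stress factors Atf3 and Atf4 rose by 0.47 each. Atf4 went from 95.03 and 101 FPKM in WT to 130 and 142 FPKM in TDG KO (adjusted p = 0.00184 in limma). Pcna, the replication clamp that GADD45 proteins bind, and the kinase Cdk1 each fell by 0.36. Pcna was not called without WT replicate 2 (adjusted p = 0.0756) and Cdk1 not without WT replicate 1 (0.0513 in limma). Neither the cell cycle inhibitor Cdkn1a (log2 change -0.07, adjusted p = 0.563) nor the stress factor Ddit3 (0.15, adjusted p = 0.111 in limma) was called.

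In the list of methylcytosine oxidation and removal all 6 tested genes fell, Tdg included, and Tet3 stayed under the minimum. Of all tested genes 29.5% were called lower. Tet2 fell by 1.53, the abasic site endonuclease Apex1 by 0.72 and Tet1 by 0.56. Tet1 held 45.7 and 44.5 FPKM in WT and 37.2 and 24.7 FPKM in TDG KO, and its log2 change was -0.84 when TDG KO replicate 1 was left out and -0.27 when TDG KO replicate 2 was. It was not called without WT replicate 1 (adjusted p = 0.0871), without WT replicate 2 (0.0746) or with no filter on FPKM (0.126 in limma). Taking the partner lists as 1 set, with the knocked-out Tdg among them, 34 of 49 tested genes were called, 9 higher and 25 lower. Of all tested genes 54.0% were called, 24.4% higher and 29.5% lower. Fewer partners were called when 1 library was left out, and the same held for all tested genes. All these lists were compared by count only, and no list was tested as a set.

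**Figure D3:**
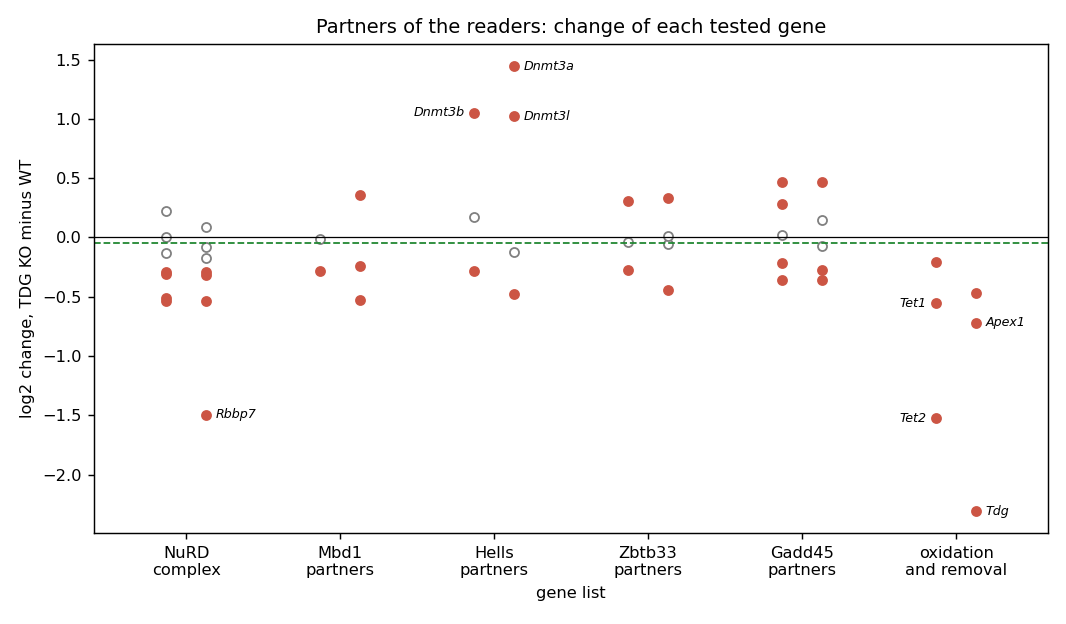
Log2 change (TDG KO minus WT) of each tested gene in 6 lists of partners of the members; filled red points were called, open grey points were not, names are given beyond 0.55 in size, and the green dashed line is the median of all tested genes (-0.04). Rbbp7 at -1.49 stands below the other NuRD genes, and Dnmt3a, Dnmt3b and Dnmt3l stand above the other Hells partners.

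CTCF peaks were merged across the 4 lists where they overlapped, and the regions inside or within 10 kb of each member were described. There were 13 such regions, of which 9 had a peak in all 4 lists. A region in all 4 lists lay near 7 of the 9 members, where 73.7% of 11341 tested genes placed by RefSeq have one. Regions present in each TDG KO list and absent from WT, a class found near 20.0% of those genes, lay near 0 of the 9 members. Hells had no region of any kind within 10 kb, where 85.8% of genes have at least 1. The lists differ in length, with 38303 and 37099 peaks in WT and 48514 and 48833 in TDG KO. With each list held to its strongest peaks, as many as the shortest list has, 12 regions lay near the members and 8 of them were in all 4 lists.

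Zbtb33 was the only one of the 7 members with a window whose start was covered by a CTCF region in all 4 lists. Over 9056 tested genes, such a region overlapped any part of the 300-base window in 8.16%, which is not a share of covered starts. The region chrX:38189580-38189964 covers most of the stretch printed above, with its CTCF-like letters, and the start itself. Its peak stood at percentiles 59.5 and 57.8 of the authors' score within the WT lists and 67.8 and 74.1 within the TDG KO lists. A further region in all 4 lists was centred at -9.56 kb from the start, and a region at -7.71 kb had a peak in TDG KO replicate 2 alone.

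Upstream of Gadd45b, in chr10:80928526-80929444, each WT list held 2 separate peaks and each TDG KO list 1 wider peak over the same stretch. The peaks covered 629 and 639 bp in the WT lists and 866 and 875 bp in the TDG KO lists. Both TDG KO peaks were also wider at the start of Zbtb33 (286 and 291 against 302 and 373 bp). The same held at -3.99 kb from Mbd3 and at -1.69 kb from Gadd45a. Upstream of Hmces they were narrower (289 and 287 against 273 and 281 bp), and in the remaining regions in all 4 lists widths overlapped. Whether width follows the depth of a list was not tested. The region ends 647 bp before the gene. Its best peak was at percentiles 79.0 and 87.5 in WT against 73.1 and 96.3 in TDG KO, so the score did not separate the genotypes.

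Regions near the other members were less uniform. At the low-coordinate end of Mbd1 (chr18:74267873-74268112) WT replicate 1 had a peak at percentile 14.5, WT replicate 2 had none, and the TDG KO lists had peaks at 36.1 and 38.5. A region 8700 bp beyond the end of Mbd3 showed the same pattern, with 14.5 in WT replicate 1, none in WT replicate 2, and 53.8 and 41.2 in TDG KO. The region centred at -3.99 kb from the start of Mbd3 was in all 4 lists. Upstream of Hmces, at -7.18 kb from its start, a region in all 4 lists stood at percentiles 18.9 and 24.4 in WT against 51.2 and 43.3 in TDG KO. The region at -1.69 kb from the start of Gadd45a ran the other way, at 15.5 and 22.8 in WT against 6.04 and 8.98 in TDG KO, and a region inside the gene had a peak in 1 list of each genotype. Uhrf2 held 2 regions inside the gene and Mbd2 held 1, each with a peak in all 4 lists. Percentiles come from lists of different length and show rank within a list, not a change in binding.

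**Figure D4:**
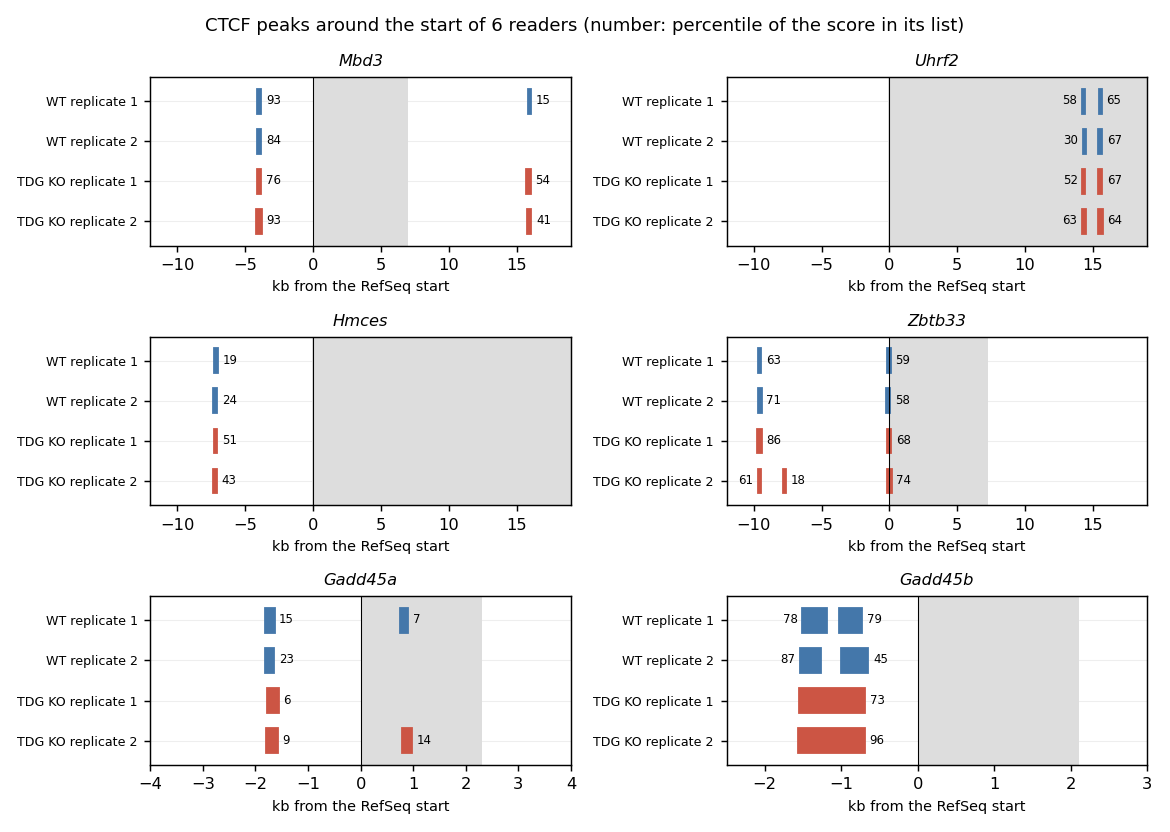
CTCF peaks in the 4 lists around the RefSeq start of 6 members, in kb along the gene's direction; blue bars are WT peaks and red bars TDG KO peaks, numbers are percentiles of the score within the list, and grey is the gene. The peak at 0 in Zbtb33 is in all 4 lists, and upstream of Gadd45b 2 peaks in each WT list face 1 wider peak in each TDG KO list.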

How the data were processed

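RNA-seq of polyadenylated RNA covered 2 WT and 2 TDG KO libraries, and CTCF peaks 2 lists per genotype. The authors deposited FPKM per gene and library and, in a table of the comparison, mean FPKM, a log2 fold, p-values and q-values with a test statistic, which is a score, per the file headers. Within 0.01, 21031 of 21039 genes had a log2 fold equal to the WT mean over the TDG KO mean, so the sign was turned here. The peak lists deposited by the authors hold a score per peak, whose meaning no source used here gives. Tools listed without roles in the submitters' processing notes were MACS2 2.2.1, Bowtie2 2.2.9, deepTools, Cuffdiff, Cufflinks 2.2.1 and TopHat2 2.1.1, and the build was mm10. The count of reads is not in these values, so absolute depth is unknown; steps between low values put depth relative to WT replicate 1 at 0.858 (WT replicate 2), 0.991 and 0.929 (TDG KO replicates 1 and 2). No source used here states strand use, so overlapping genes are uncertain.

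limma 3.58.1 in R 4.3.3 was run with the trend option on log2(FPKM + 1) over genes whose mean FPKM reached 1. The procedure was tested on simulated data. This scale shrinks fold changes of low genes. Peaks were merged at an overlap of at least 1 bp. Coordinates are mm10, 1-based, from RefSeq (GRCm38.p6) for genes. The members, lists and motifs were chosen with earlier results of these data known. Named genes are the members, Tdg, up to 4 called genes of each list by size of change, up to 2 uncalled ones by level, and the 3 nearest profiles of the highest and lowest member. Some genes that this rule names are not reported here. Alternatives covered pseudocount, filter, scaling, trend, replicate block, left-out libraries and, for peaks, window, overlap and list length. RNA polymerase II, IgG and input libraries were not analysed here.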

Additional observations from a re-analysis of the deposited data

How the results depend on the processing

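Of the 9 members, Gadd45b, Hmces, Hells and Zbtb33 kept their direction and call under each other pseudocount, filter, scaling, trend, block and left-out library run for them, and Mbd1 stayed uncalled. The members called, 6 as reported, were 2 with a minimum change of 0.5, which Hells and Zbtb33 missed, and 3 by the authors' q-values, which leave out Hells, both chosen after seeing the data, and 4 to 6 when 1 library was left out. Leaving out 1 library gave 9 to 15 called related readers and 20 to 31 called partners. Uncalled values changed sign in these cases. With upper-quartile and median-ratio scaling Mbd3 was at 0.034 and 0.043, Chaf1b at 0.025 and 0.034, and Ncor1 at 0.0019 and 0.011. Leaving out 1 library gave ranges of -0.091 to 0.083 for Mbd3, -0.0083 to 0.063 for Uhrf2, -0.045 to 0.020 for Chaf1b, -0.11 to 0.041 for Ncor1, -0.022 to 0.053 for Tbl1x and -0.21 to 0.070 for Cdkn1a. The cause was not tested. A library left alone in its genotype was assumed to vary like the other pair. CTCF regions numbered 13 within 10 kb of a member, 7 within 1 kb and 44 within 50 kb, and those in every list 9, 5 and 32. These counts follow the window's size.

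The labels' replicate numbers are shared by the genotypes but no label says that they pair the samples. Differences between replicates 1 and 2 in WT and TDG KO correlated at -0.016 over 12035 genes. With the replicate block limma called 6 members, 16 related readers, 34 partners and 6696 of all tested genes, against 6496 without it.

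With 2 libraries per genotype and no read counts, the precision of the low members Zbtb33 and Mbd1 cannot be stated from depth.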

Other observations

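Glt8d2, a glycosyltransferase gene that the authors counted in one 60.8 kb locus with Tdg, also fell: it held 5.28 and 5.44 FPKM in WT and 0.305 and 0.170 FPKM in TDG KO (log2 change -2.36, adjusted p = 1.66e-05 in limma). It was singled out after its values were seen. The genes counted in one locus with Hmces, Zbtb33 and Gadd45a were not called: Copg1 (log2 change -0.02), Tmem255a (-0.20) and E230016M11Rik (-0.03).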
